A study of Mus musculus with 29 samples.

Results

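The genes described here are 10 genes of the integrated stress response and of the response of the endoplasmic reticulum (ER) to unfolded protein: Chac1, Ddit3, Atf4, Atf5, Trib3, Asns, Ppp1r15a, Hspa5, Xbp1 and Herpud1. They were chosen by gene symbol, as known members of these pathways, from 54532 genes counted in each of 29 spinal cord libraries. Earlier results of these data were known at that choice, so counts of these genes that passed are descriptions. All 10 passed the filter on low counts in every comparison. A further identifier with the symbol Ddit3, a model of 105 bases inside the same locus, had 0 counts in every library and was not used.

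The libraries are poly-A selected RNA of mouse spinal cord after aortic cross clamping (ACC), a surgical clamp on the aorta that interrupts blood flow to the lower cord, or after a sham operation. At 4 h, thoracic and lumbar cord was taken from separate mice of 3 genotypes, all on a C57BL6 background and of either sex. Wild-type mice (WT, C57BL-6J) gave 3 ACC and 3 Sham libraries. Mice that lack miR-128 in all tissues (miR128KO) gave 4 ACC and 4 Sham libraries, and MN-miR-155-KI mice, with miR-155 knocked in for motor neurons (miR155KI), gave 5 ACC and 4 Sham libraries. Both are microRNAs, short RNAs that silence target messengers. At 1 h, thoracolumbar and cervical cord came from the same 3 clamped WT mice, and the study took the cervical cord as the part of the cord that the clamp spares. There is no sham mouse at 1 h, so position along the cord and the clamp cannot be told apart there. Ages, and the promoter or locus behind the motor neuron knock-in, are not given in the sources used here.

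The integrated stress response starts when a kinase phosphorylates the translation factor eIF2alpha, which slows protein synthesis while favouring translation of the messenger RNA of ATF4. ATF4 then raises genes for amino acid supply (Asns), for further transcription factors (Ddit3, Atf5), and for feedback and redox control (Trib3, Ppp1r15a, Chac1). Unfolded protein in the ER feeds the same pathway through the kinase PERK, and acts through IRE1 and ATF6 on Xbp1, on the chaperone Hspa5 and on Herpud1, and interrupted blood flow is a known trigger of both responses in nervous tissue. Gene counts read the amount of messenger RNA. They do not show phosphorylation of eIF2alpha, translation of ATF4 or splicing of Xbp1.

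Total counts ran from 15.6 M to 33.1 M per library. Levels are given as CPM, counts rescaled to the same total in every library. The summed level of 6 neuronal markers was 4116 to 4995 CPM in ACC and 4039 to 4942 CPM in Sham libraries at 4 h, that of 6 astrocyte markers 5307 to 7839 against 5213 to 7454 CPM, and that of 6 oligodendrocyte markers 30330 to 42180 against 29850 to 43230 CPM. All of these markers were detected, so the libraries carry the markers of their labelled tissue. Libraries of 2 mice stood apart from their labels. The library labelled miR128KO ACC 1, which the study left out because that cord showed no change against Sham, held 2.78 CPM of the inducible heat shock gene Hspa1b, where the other ACC libraries held 375 to 768 CPM and Sham libraries 1.60 to 4.42 CPM. It is left out of the fits below except where stated, an exclusion made by outcome that leaves 11 ACC and 11 Sham libraries. The thoracolumbar library of mouse 3 at 1 h held 3.39 CPM of Hspa1b against 386 and 353 CPM in those of mice 1 and 2, and 15.4 CPM of the immediate early gene Fos against 319 and 387 CPM. Cervical libraries of mice 1 to 3 held 14.8, 6.04 and 3.84 CPM of Hspa1b and 46.9, 33.9 and 23.6 CPM of Fos. Sham libraries at 4 h reached 4.42 and 17.4 CPM of these genes. Whether the cervical cord at 1 h itself carried a response was not tested.

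The stretches of 250 bases before the transcription starts of 4 of the genes are printed because they hold the letters of stress elements known from these pathways. Sequences are those of RefSeq on GRCm38.p6, read 5′ to 3′ on the strand of the gene, and capitals mark the specified letters of each match. The ER stress element (ERSE, CCAAT and CCACG with 9 unspecified bases between them) is known to be bound by ATF6 with NF-Y, its shorter form ERSE-II is ATTGG and CCACG with 1 base between them, and the C/EBP-ATF response element (CARE, TGATGNAA) is known to be bound by ATF4 with a C/EBP partner.
Hspa5 promoter (chr2:34771840-34772089, plus strand): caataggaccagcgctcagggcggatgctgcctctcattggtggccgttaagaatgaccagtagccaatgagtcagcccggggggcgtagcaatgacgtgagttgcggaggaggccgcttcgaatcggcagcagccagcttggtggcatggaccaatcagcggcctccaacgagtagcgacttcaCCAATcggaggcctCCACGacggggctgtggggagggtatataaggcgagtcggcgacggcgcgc
Herpud1 promoter (chr8:94386179-94386428, plus strand): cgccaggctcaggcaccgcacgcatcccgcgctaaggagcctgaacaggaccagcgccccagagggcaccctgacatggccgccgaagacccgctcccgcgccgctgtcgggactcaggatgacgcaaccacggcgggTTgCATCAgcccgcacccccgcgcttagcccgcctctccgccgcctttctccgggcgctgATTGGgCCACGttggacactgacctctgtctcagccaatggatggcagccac
Chac1 promoter (chr2:119350992-119351241, plus strand): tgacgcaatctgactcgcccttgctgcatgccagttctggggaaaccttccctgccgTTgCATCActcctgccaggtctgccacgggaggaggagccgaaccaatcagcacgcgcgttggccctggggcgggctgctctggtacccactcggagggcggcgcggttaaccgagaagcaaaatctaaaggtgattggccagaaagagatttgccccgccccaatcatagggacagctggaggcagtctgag
Asns promoter (chr6:7693210-7693459, minus strand): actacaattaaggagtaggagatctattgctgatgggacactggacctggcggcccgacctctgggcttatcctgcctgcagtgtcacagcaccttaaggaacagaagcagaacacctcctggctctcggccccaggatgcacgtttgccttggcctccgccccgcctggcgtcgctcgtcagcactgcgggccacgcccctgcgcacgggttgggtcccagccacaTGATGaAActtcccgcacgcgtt

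The ERSE of Hspa5 ends 47 bases before the RefSeq start, and 37 of 32851 promoter windows of the same length (0.113%) held that pattern on either strand. The ERSE-II of Herpud1 ends 42 bases before the start, a pattern found in 10 windows (0.0304%). CARE letters were present in Chac1 and Herpud1 on the opposite strand, 193 to 186 and 112 to 105 bases before the start, and in Asns on the gene's strand at 23 to 16 bases, against 3.45% of all windows. The cAMP response element TGACGTCA was found in Ppp1r15a alone of the 10, against 1.55% of windows. The element UPRE (TGACGTGG, bound by XBP1) and a heat shock element (GAA, TTC and GAA, joined by 4 unspecified bases in pairs) matched 0 of the 10 windows, against 0.563% and 0.466% of all. Searches covered both strands, and the patterns do not count partial matches. The count table places the gene start 120 bases before the RefSeq start for Hspa5 and 45 bases before it for Asns, so their matches lie inside the gene as counted.

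The 4 h comparison addresses how the cord in the territory of the clamp differs from that of sham mice. Across the 3 genotypes, in a fit with no term for genotype, 8 of the 10 genes rose after clamping and 0 fell. Of all 17759 genes tested, 9.37% rose and 7.04% fell at the same threshold, an adjusted p under 0.05 in edgeR's quasi-likelihood test with Benjamini-Hochberg adjustment. Chac1 rose 3.04-fold, Trib3, Ppp1r15a and Ddit3 between 1.74- and 1.91-fold, Hspa5, Xbp1 and Atf4 between 1.35- and 1.5-fold, and Herpud1 1.11-fold. Atf5 and Asns did not pass. The median log2 fold change of the 10 genes was 0.57, against -0.01 over all genes tested. For 6 genes every ACC library lay above every Sham library, an ordering that 1.04% of all genes tested showed.

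**Figure D1:**
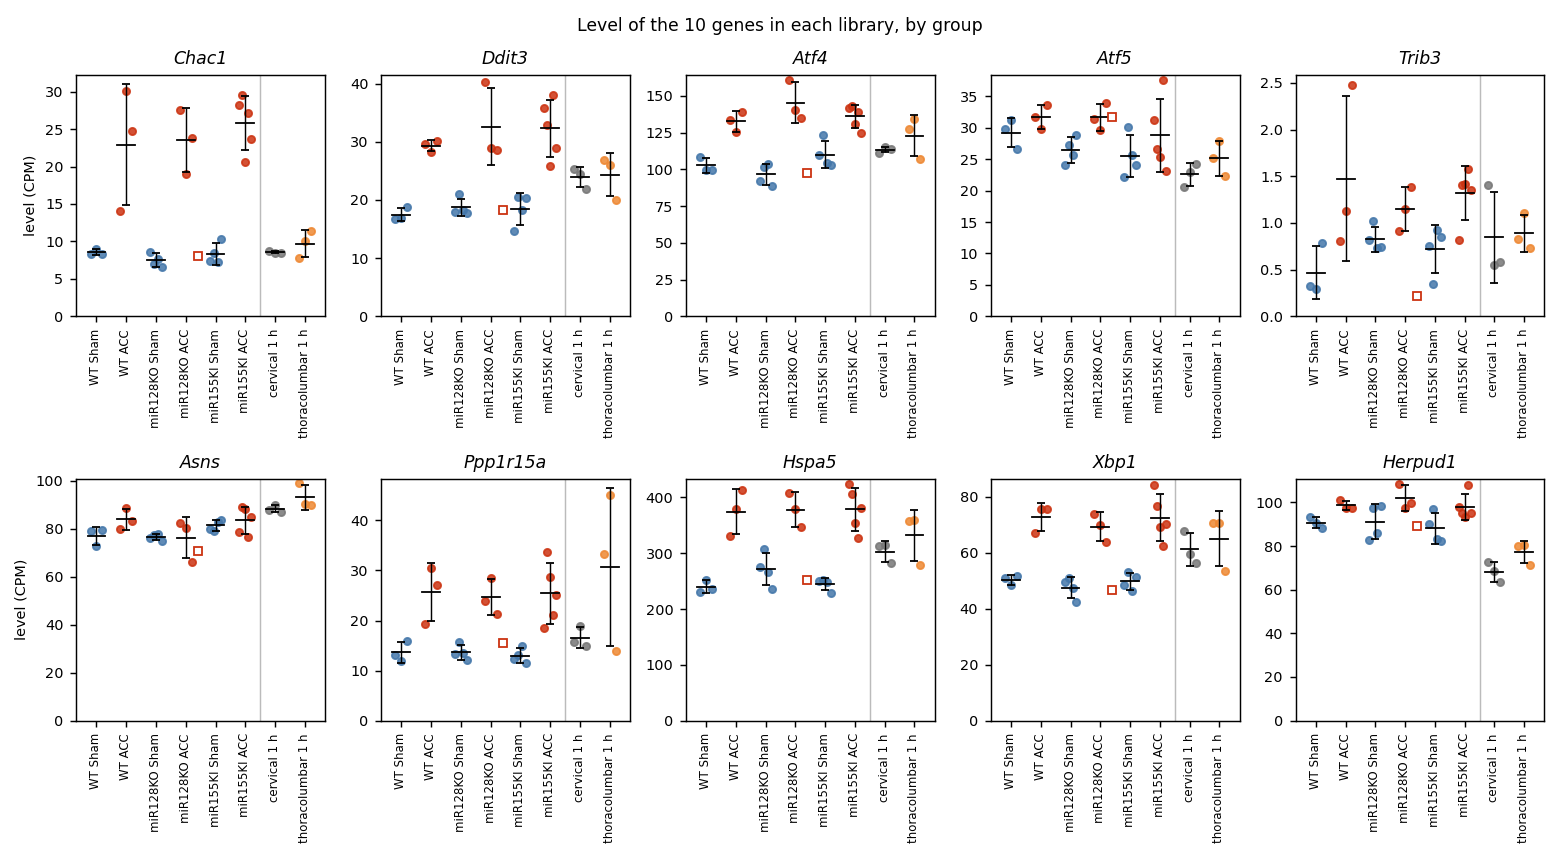
Level of each of the 10 genes in CPM (vertical axes, starting at 0) in every library, by group. Points are libraries, bars the mean and SD of a group, and the open square is the miR128KO ACC library that the study left out. ACC points stand above all Sham points for Chac1, Ddit3, Atf4, Ppp1r15a, Hspa5 and Xbp1, and the open square stands at Sham level for these genes.

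Atf4 (ENSMUSG00000042406, GRCm38 chromosome 15, 80255184 to 80257541), the transcription factor at the head of the response, stood at 134, 125 and 139 CPM in WT ACC against 109, 99.7 and 99.7 CPM in WT Sham libraries 1 to 3. In miR128KO it stood at 161, 141 and 135 CPM in ACC libraries 3 to 5 and at 91.9, 102, 103 and 88.7 CPM in Sham. In miR155KI it stood at 142, 143, 131, 139 and 125 CPM in ACC and at 109, 123, 104 and 103 CPM in Sham. The groups did not overlap within any genotype, although miR155KI ACC library 5 and miR155KI Sham library 2 nearly met. Over the 3 genotypes Atf4 rose from 103 ± 9.19 to 138 ± 9.97 CPM (SD, n = 11 each), a log2 fold change of 0.43 (SE 0.0493, edgeR adjusted p = 2.36e-07).

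Ddit3 (ENSMUSG00000025408, chromosome 10, 127290774 to 127296288) encodes CHOP, a transcription factor of prolonged ER stress. Its level was 29.5, 28.3 and 30.1 CPM in WT ACC libraries against 16.7, 16.9 and 18.8 CPM in WT Sham. In miR128KO ACC it was 40.3, 28.9 and 28.6 CPM, and in Sham 18.0, 21.0, 18.3 and 17.8 CPM. The miR155KI libraries held 35.8, 32.9, 25.9, 38.0 and 29 CPM in ACC and 14.6, 20.5, 18.2 and 20.3 CPM in Sham. Even the lowest ACC library, miR155KI 3, lay above the highest Sham library, miR128KO 2. The log2 fold change was 0.80 (SE 0.0731, adjusted p = 2.66e-09). The last 68 bases of the locus overlap the end of the oppositely oriented tRNA synthetase gene Mars, which stood at 50.2 CPM in ACC and 45.5 CPM in Sham. Whether the counting used strand is not given in the sources used here.

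Atf5 (ENSMUSG00000038539, chromosome 7, 44812256 to 44816658), a further factor translated under stress and known for mitochondrial protein quality control, did not pass. Its ACC libraries ran from 23.2 to 37.6 CPM with a median of 31.2, and its Sham libraries from 22.1 to 31.2 CPM with a median of 26.7. The ranges overlapped widely, with 6 of 11 ACC libraries above the highest Sham library. The log2 fold change was 0.19 (95% interval 0.04 to 0.34, adjusted p = 0.0711). It passed with genotype as a covariate (adjusted p = 0.0486), without WT Sham library 2 (0.0486), without miR155KI ACC library 3 (0.0399) and without miR155KI ACC library 5 (0.0253). The locus shares 571 bases with Nup62 on the opposite strand, a gene at 28.3 CPM in ACC and 25.0 CPM in Sham.

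Chac1 (ENSMUSG00000027313, chromosome 2, 119351229 to 119354381), which encodes an enzyme that cleaves glutathione, gave the highest fold change of the 10. It was counted at 14.1, 30.0 and 24.7 CPM in WT ACC against 8.35, 9.03 and 8.36 CPM in WT Sham. In miR128KO it was at 27.6, 19.1 and 23.8 CPM in ACC and at 8.65, 6.95, 7.69 and 6.54 CPM in Sham. In miR155KI it was at 28.3, 29.5, 20.6, 27.1 and 23.7 CPM in ACC and at 7.41, 8.40, 7.21 and 10.3 CPM in Sham. Sham libraries were tightly grouped, ACC libraries spread more, and WT ACC library 1 was the lowest of them while still above every Sham library. The log2 fold change was 1.61 (SE 0.0992, adjusted p = 1.95e-12), which ranked 62 from the top among 17759 genes. Its mean rose from 8.08 ± 1.07 to 24.4 ± 4.91 CPM (SD, n = 11 each).

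Ppp1r15a (ENSMUSG00000040435, chromosome 7, 45522916 to 45526268) encodes GADD34, the stress-induced subunit of the phosphatase that removes the phosphate from eIF2alpha. WT ACC libraries held 19.4, 30.6 and 27.1 CPM and WT Sham libraries 13.2, 11.8 and 15.8 CPM. In miR128KO the ACC values were 23.9, 28.6 and 21.4 CPM and the Sham values 13.2, 15.6, 13.5 and 12.2 CPM. In miR155KI the ACC values were 18.5, 33.8, 28.6, 21.0 and 25.1 CPM and the Sham values 12.4, 13.1, 14.9 and 11.5 CPM. Again no Sham library reached the lowest ACC library. The gene rose by 0.93 log2 units (SE 0.0915, adjusted p = 2.16e-08). The locus overlaps Tulp2 on the opposite strand over 717 bases, and Tulp2 stood at 0.176 CPM in ACC and 0.226 CPM in Sham.

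Trib3 (ENSMUSG00000032715, chromosome 2, 152337422 to 152344032), a pseudokinase that acts as a feedback brake on ATF4 and CHOP, was the least abundant, with 6 to 46 reads in the libraries of the 4 h fit. It was at 0.811, 1.13 and 2.48 CPM in WT ACC and at 0.326, 0.290 and 0.790 CPM in WT Sham. In miR128KO the ACC libraries held 0.909, 1.15 and 1.39 CPM and the Sham libraries 0.814, 1.02, 0.728 and 0.742 CPM. In miR155KI the ACC libraries held 0.819, 1.41, 1.42, 1.57 and 1.35 CPM and the Sham libraries 0.751, 0.343, 0.919 and 0.854 CPM. Every ACC library lay above the Sham median of 0.751 CPM, and 8 of 11 above the highest Sham library. Trib3 rose by 0.93 log2 units, with the widest interval of the 10 genes (0.47 to 1.39, adjusted p = 0.00328).

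Asns (ENSMUSG00000029752, chromosome 6, 7675169 to 7693254), which makes asparagine and is a textbook target of ATF4, did not pass. ACC libraries ran from 66.4 to 89.1 CPM with a median of 82.4, and Sham libraries from 72.7 to 83.8 CPM with a median of 78.9. The lowest value of all 22 libraries was an ACC library, miR128KO 5, and the highest was an ACC library as well. The log2 fold change was 0.07 (95% interval -0.02 to 0.16, adjusted p = 0.296), so its upper limit lay below the estimate of every one of the 8 genes that rose except Herpud1. Of the genes with CARE letters in the printed promoters, Chac1 thus had the largest fold change of the 10 and Asns the smallest.

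Hspa5 (ENSMUSG00000026864, chromosome 2, 34771970 to 34777547) encodes BiP, the main Hsp70 chaperone of the ER. WT ACC libraries held 332, 379 and 413 CPM and WT Sham libraries 231, 253 and 237 CPM. The miR128KO ACC libraries held 409, 379 and 347 CPM and the Sham libraries 276, 307, 266 and 236 CPM. In miR155KI, ACC libraries held 424, 405, 355, 327 and 382 CPM and Sham libraries 251, 252, 249 and 228 CPM. The groups were separate in each genotype, with the smallest gap in miR128KO. Hspa5 rose from 253 ± 23.0 to 377 ± 33.5 CPM (SD, n = 11 each), or by 0.59 log2 units (SE 0.0551, adjusted p = 4.70e-09).

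Xbp1 (ENSMUSG00000020484, chromosome 11, 5520659 to 5525893), whose messenger RNA is the substrate of IRE1, stood at 67.0, 75.7 and 75.8 CPM in WT ACC and at 51.0, 48.3 and 51.8 CPM in WT Sham. The miR128KO libraries held 74.0, 70.1 and 64.0 CPM in ACC and 49.4, 50.8, 47.3 and 42.4 CPM in Sham. The miR155KI libraries held 84.3, 76.8, 69.1, 62.5 and 70.2 CPM in ACC and 48.6, 53.0, 46.1 and 51.2 CPM in Sham. No library of one treatment fell within the range of the other. The gene rose by 0.56 log2 units (SE 0.0469, adjusted p = 4.37e-10). Xbp1 is strongly expressed by plasma cells, and 7 markers of B and plasma cells summed to 1.81 to 5.76 CPM in ACC and to 2.70 to 12.4 CPM in Sham libraries. None of the 4 of them that could be tested passed in either direction, and none was at 0 in all libraries of either treatment. At such low levels a marker that does not pass says little. The part of plasma cells in the result for Xbp1 was not tested.

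Herpud1 (ENSMUSG00000031770, chromosome 8, 94386438 to 94395377), a membrane protein of ER-associated degradation, rose least of the genes that passed. ACC libraries ran from 93.5 to 109 CPM with a median of 97.7, and Sham libraries from 82.1 to 98.3 CPM with a median of 90.3. Only 4 of 11 ACC libraries exceeded the highest Sham library, but all 11 lay above the Sham median. The log2 fold change was 0.15 (SE 0.0407, adjusted p = 0.00861). Its promoter holds both an ERSE-II and CARE letters. The 95% interval of its log2 fold change was 0.07 to 0.24, below that of Hspa5, 0.47 to 0.70.

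Levels of different genes are compared per kilobase of the gene length in the count table. In Sham mice Hspa5 was the most abundant of the 10, at 59.9 ± 5.44 CPM per kb, followed by Atf4 at 43.7 ± 3.90, Herpud1 at 38.5 ± 2.61 and Asns at 28.7 ± 1.18 CPM per kb (SD, n = 11). Xbp1 (15.1 ± 0.934), Atf5 (13.5 ± 1.45) and Ddit3 (10.7 ± 1.09) came next. Chac1 at 4.94 ± 0.655, Ppp1r15a at 4.56 ± 0.505 and Trib3 at 0.324 ± 0.118 CPM per kb were the lowest in Sham and had the 3 highest fold changes at 4 h. After clamping, Ddit3 stood at 18.4 ± 2.67 and Chac1 at 14.9 ± 3.00 CPM per kb. In bulk tissue, a change in the number of cells of a type and a change in RNA per cell cannot be told apart.

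Each genotype was then read on its own, from one model in which the 6 groups at 4 h share an estimate of the spread. The same 6 genes, Chac1, Ddit3, Atf4, Ppp1r15a, Hspa5 and Xbp1, rose in WT, in miR128KO and in miR155KI. Of the 19581 genes tested in that fit, 1.44% rose and 0.291% fell in WT, 2.07% rose and 0.659% fell in miR128KO, and 3.29% rose and 1.32% fell in miR155KI. Chac1 rose by 1.43 log2 units (SE 0.198, edgeR adjusted p = 0.000172) in WT, by 1.67 (SE 0.181, 2.78e-06) in miR128KO and by 1.65 (SE 0.162, 5.87e-07) in miR155KI. Ddit3 rose by 0.76, 0.81 and 0.83 log2 units, Ppp1r15a by 0.93, 0.87 and 0.98, Hspa5 by 0.65, 0.50 and 0.64, Xbp1 by 0.54, 0.57 and 0.56, and Atf4 by 0.38, 0.61 and 0.32, in that order of genotypes. ACC and Sham libraries did not overlap for 9 of the 10 genes in WT, 7 in miR128KO and 6 in miR155KI. Such an upward separation occurred in 8.95%, 6.70% and 4.28% of all genes in these groups of 3 to 5, and a downward one, seen in 0 of the 10, in 10.8%, 7.46% and 3.44%.

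**Figure D2:**
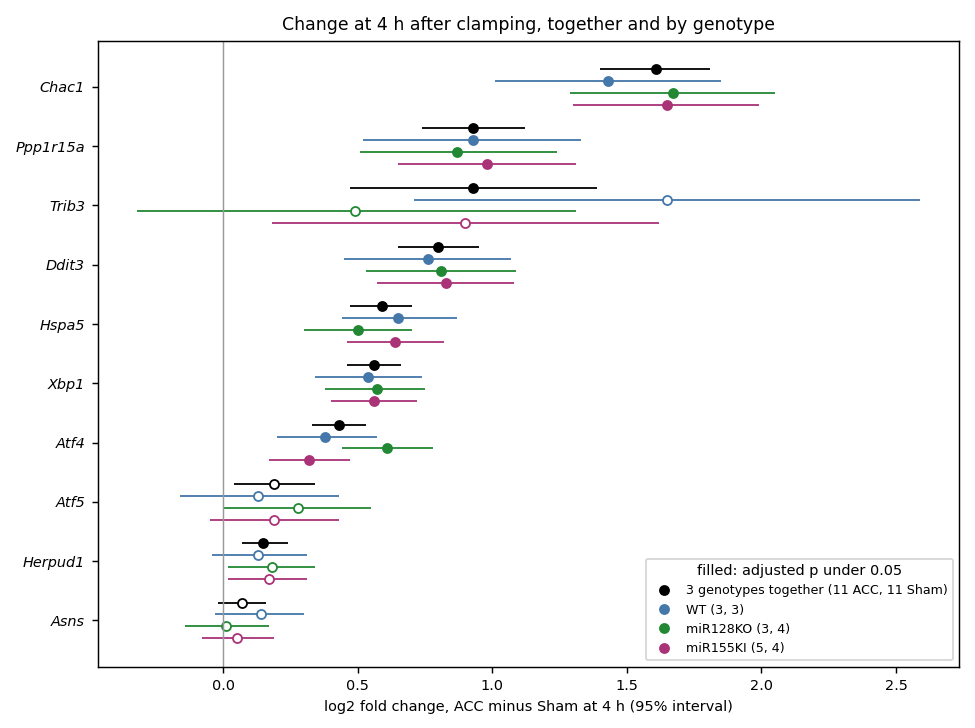
Log2 fold change of each gene, ACC minus Sham at 4 h (horizontal axis), with its 95% interval, for the 3 genotypes together and for each genotype. Filled points passed an adjusted p under 0.05. The 3 genotypes lie close together for Ddit3, Ppp1r15a, Hspa5 and Xbp1, while the intervals of Trib3 are the widest.

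Some calls in WT were lost when 1 of the 3 libraries of a group was left out, while the fold changes stayed at 0.33 to 0.37 log2 units for Atf4 and at 0.81 to 0.91 for Ppp1r15a. The WT call of Atf4 was lost without ACC library 1 (adjusted p = 0.0568), ACC library 3 (0.120), Sham library 2 (0.0877) or Sham library 3 (0.112). The WT call of Ppp1r15a was lost without ACC library 2 (0.0692), ACC library 3 (0.0576), Sham library 1 (0.0542) or Sham library 2 (0.0712). Trib3 in WT missed the threshold at 1.65 log2 units (95% interval 0.71 to 2.59, adjusted p = 0.0544). It passed without ACC library 1 (0.0229), without Sham library 3 (0.0293), without miR155KI ACC library 1 (0.0496) and without miR155KI Sham library 2 (0.0350), as well as with DESeq2 (0.0222) and with no filter on low counts (0.0441). In miR128KO and miR155KI, leaving out any 1 of the 22 libraries kept 6 calls.

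The ACC effect on the 10 genes did not differ detectably among genotypes. In the joint test of that difference 0 of the 10 passed, and 0.00% of the 19581 genes did. With edgeR, 618 genes were under an unadjusted p of 0.05, and DESeq2 called 1 gene, none of the 10. The widest intervals were those of Trib3, whose effect in miR128KO minus that in WT was -1.16 log2 units (95% interval -2.40 to 0.09) and in miR155KI minus WT -0.75 (-1.93 to 0.43). For Chac1 the effect in miR128KO minus that in WT was 0.24 log2 units (95% interval -0.32 to 0.81), and that in miR155KI minus WT 0.22 (-0.31 to 0.76). For Hspa5 these differences were -0.16 (-0.45 to 0.14) and -0.01 (-0.29 to 0.27), and for Xbp1 0.02 (-0.25 to 0.29) and 0.02 (-0.24 to 0.27). Atf4 came closest to a difference, with an effect in miR155KI lower than in miR128KO by an interval of -0.52 to -0.06 log2 units, but an adjusted p of 0.925.

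The Sham mice of the 3 genotypes did not differ detectably either. In the joint test among Sham groups 0 of the 10 genes passed, against 0.0868% of all genes (17 of 19581, with 1345 under an unadjusted p of 0.05 and 85 called by DESeq2). Hspa5 in miR128KO Sham exceeded WT Sham by 0.19 log2 units (95% interval -0.01 to 0.39, edgeR adjusted p = 0.784), from 240 ± 11.2 to 271 ± 29.2 CPM (SD, n = 3 and 4). Atf4 was 96.5 ± 7.27 CPM in miR128KO Sham, 103 ± 5.12 in WT Sham and 110 ± 9.43 in miR155KI Sham (SD, n = 4, 3 and 4), groups whose libraries overlapped.

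The library labelled miR128KO ACC 1 followed the Sham libraries in these genes. It held 8.08 CPM of Chac1, 18.2 CPM of Ddit3, 252 CPM of Hspa5 and 46.6 CPM of Xbp1. For 8 of the 10 genes its value lay below that of every other ACC library, the exceptions being Atf5, at 31.7 CPM and above all 11 Sham libraries, and Asns, at 70.5 CPM and below all of them. Its median fold over the mean of miR128KO Sham was 0.980, with 4 of 10 genes above that mean. In the 11 ACC libraries of the fits, that median ran from 1.35 to 1.61 and 9 or 10 genes lay above the Sham mean of their genotype. The shares of all genes tested in these positions were not computed. The study left this library out for showing no change against Sham. Its low values for genes that rose in the other ACC libraries were thus partly fixed by that choice. These counts are descriptions. With this library kept, all 8 calls over the 3 genotypes remained. Within miR128KO the number of calls then fell from 6 to 2, Chac1 and Atf4, with adjusted p of 0.0797 for Ddit3, 0.0773 for Ppp1r15a, 0.153 for Hspa5 and 0.0552 for Xbp1. In that fit Ddit3 (log2 fold change 0.76, adjusted p = 0.0642) and Atf4 (0.39, 0.141) also no longer passed in WT, nor Atf4 (0.31, 0.0753) in miR155KI.

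Other genes of the same pathways were read from the same fit, in 8 lists with 133 tested genes. The lists, like the 10 genes, were chosen with earlier results of these data known. At 4 h, 44 of these 133 rose and 2 fell, where 9.37% of all genes tested rose and 7.04% fell, and each list had a lower median log2 fold change than the 10 genes. Beside the 10, the highest list median was 0.24, in 16 tested genes of the kind that ATF4 targets.

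Upstream of ATF4, 2 of 12 genes for eIF2alpha kinases, phosphatase partners and the exchange factor eIF2B rose and 0 fell, with a list median of 0.03. Ppp1r15b, the constitutive counterpart of Ppp1r15a, rose by 0.58 log2 units, from 73.2 ± 3.02 to 108 ± 10.1 CPM (SD, n = 11 each, edgeR adjusted p = 5.46e-11). Nck1, an adaptor that assists that phosphatase, rose by 0.19. Among the other genes of the kind that ATF4 targets, 6 of 16 rose and 1 fell. Atf3, a transcription factor induced by many stresses, rose by 3.79 log2 units, from 2.18 ± 1.20 to 30.3 ± 5.40 CPM (adjusted p = 2.20e-11). Sesn2, a sensor that restrains mTORC1, rose by 0.49 and Jdp2, a partner of AP-1 factors, by 0.38, while Klhl24 fell by 0.38 on the log2 scale.

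Of 20 genes of amino acid synthesis and transport, 8 rose and 0 fell, although Asns did not pass. Slc7a1, a transporter of cationic amino acids, rose by 0.37 log2 units, Aldh18a1 of proline synthesis by 0.31, Slc3a2, the shared heavy chain of amino acid exchangers, by 0.27, and Slc1a4 by 0.21. Of 18 cytosolic aminoacyl-tRNA synthetases, 10 rose and 0 fell, all by small amounts. Cars rose by 0.29, Tars by 0.23, Aars by 0.22 and Yars by 0.19 log2 units. The list medians were 0.10 and 0.12.

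On the ER side, 1 of 10 sensors and their processing enzymes rose, Creb3l2, a membrane-bound transcription factor, by 0.32 log2 units, a count near the 9.37% of all genes that rose. Of 26 ER chaperones and folding enzymes other than Hspa5, 9 rose and 1 fell, with a median of 0.09. Creld2 rose by 0.65, the secreted protein gene Manf by 0.37, Hyou1, a large Hsp70 relative that exchanges the nucleotide of BiP, by 0.19, and the BiP co-chaperone Dnajb11 by 0.18, while the disulfide reductase gene Dnajc10 fell by 0.12 on the log2 scale. Of 22 genes of ER-associated degradation, 5 rose and 0 fell, among them Derl3 (0.98), the ubiquitin-conjugating enzyme gene Ube2g2 (0.43), Ubxn4 (0.33) and Edem1 (0.30). In mitochondria, the chaperonin pair Hspd1 and Hspe1 rose by 0.63 and 0.96 log2 units and the Hsp70 gene Hspa9 by 0.13, which were 3 of 10 genes of mitochondrial chaperones and proteases.

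**Figure D3:**
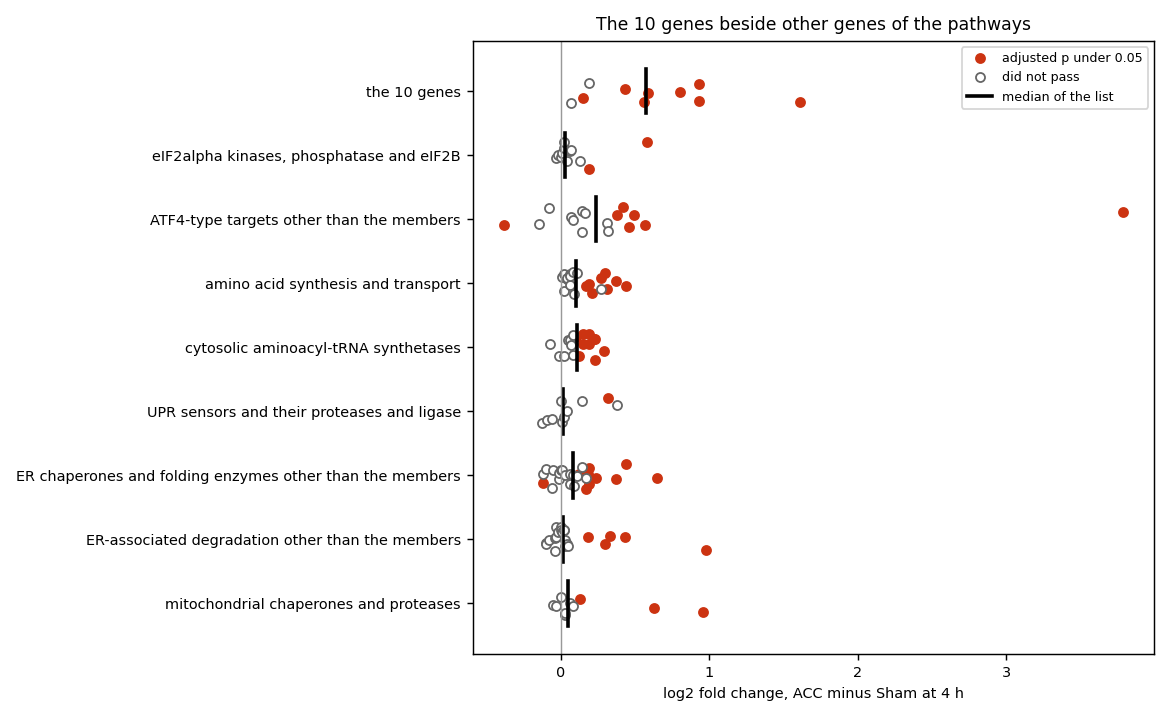
Log2 fold change, ACC minus Sham at 4 h (horizontal axis), of every tested gene in the 10 genes and in 8 lists of related genes (rows, with random vertical scatter). Filled points passed an adjusted p under 0.05 and black bars are medians, 0.57 for the 10 genes and between 0.01 and 0.24 for the lists; Atf3 is the point at 3.79.

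Of the cell type markers, 3 of 6 microglial genes fell at 4 h, and their sum was 221 to 290 CPM in ACC and 255 to 316 CPM in Sham libraries, so these ranges overlapped. All 6 were detected. The part of this difference in the results for the 10 genes was not tested. Of 6 genes each, 1 neuronal and 1 astrocyte marker fell, and 0 motor neuron or oligodendrocyte markers passed. Of 5 ependymal markers, Foxj1 rose by 0.26 log2 units (edgeR adjusted p = 0.019) and Ccdc153 fell by 0.56 on the log2 scale (0.00303). In the other 8 marker lists 0 genes passed. Their mean sums in ACC were higher for endothelium and skeletal muscle and lower for the rest. Meninges and fibroblasts had 61.75 ± 15.6 CPM in ACC against 99.5 ± 52.7 in Sham, and neutrophils 55.05 ± 26.4 against 94.85 ± 51.9 (SD, n = 11 each). Schwann cells and dorsal root ganglion had 67.9 ± 47.4 against 114 ± 83.0 CPM. The ranges overlapped, and the part of these differences in the results for the 10 genes was not tested.

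The 10 genes did not vary as a block within groups. As deviations from the means of the 6 groups over the 22 libraries at 4 h, 31 of 45 gene pairs had a positive Pearson correlation, with a median of 0.0967. Hspa5 and Xbp1 had the highest value, 0.818, followed by Asns with Ppp1r15a (0.714) and Atf5 with Herpud1 (0.685), while Atf5 with Asns had the lowest, -0.483. Libraries share their depth and scaling between genes, so these values are descriptions only. By the correlation with the mean deviation of the 10 genes, the closest of 13886 other genes were Gem (0.815), Rilpl1 (0.800), Thoc6 (0.790), Rcan1 (0.790) and Gon7 (0.770) over 22 libraries. Their lowest values with any 1 library left out ran from 0.700 to 0.761. The members entered that mean with unequal spread: the deviations of Trib3 had an SD of 0.429 log2 units, against 0.0784 to 0.232 for the others.

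At 1 h, the comparison of thoracolumbar with cervical cord of the same clamped mice gave 0 of the 10 genes in either direction. Of 17810 genes tested, 0.208% were higher and 0.230% lower in thoracolumbar cord. No gene of the 10 had groups without overlap, against 10.1% of all genes that were higher and 4.78% that were lower in every thoracolumbar library. The median log2 difference of the 10 was 0.0986, against -0.00483 over all genes. In each of the 8 lists of related genes, 0 genes passed at 1 h. Of 6 motor neuron markers, 4 were lower in thoracolumbar cord, with sums of 244 to 259 CPM against 386 to 423 CPM, and the part of this difference in the values of the 10 genes was not tested.

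Ppp1r15a gave the largest estimate at 1 h, and it was carried by 2 of the 3 mice. Mice 1, 2 and 3 had 33.3, 45.1 and 13.9 CPM in thoracolumbar cord and 15.8, 18.9 and 14.9 CPM in cervical cord. In mice 1 and 2 the thoracolumbar level was 2.11 and 2.38 times the cervical level, and in mouse 3 it was 0.929 times. The log2 difference was 0.86 (95% interval -0.50 to 2.21, edgeR adjusted p = 0.764). Without the thoracolumbar library of mouse 3, which also lacked the Fos and Hspa1b levels of the other mice, it was 1.20 with an adjusted p of 0.00038. Without both libraries of mouse 3 it was 1.14 with an adjusted p of 0.000817. Ppp1r15a was itself low in the thoracolumbar library of mouse 3. Leaving mouse 3 out is thus an exclusion made by outcome, and these 2 adjusted p are descriptions. Without that thoracolumbar library, the genes called at 1 h went from 78 to 142.

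The other 9 genes did not pass either, with or without mouse 3. Chac1 stood at 7.75, 9.99 and 11.4 CPM in thoracolumbar and at 8.72, 8.51 and 8.51 CPM in cervical cord, a log2 difference of 0.14 (95% interval -0.28 to 0.56), whose upper limit lies below its 4 h interval of 1.40 to 1.81 for ACC minus Sham. Hspa5 stood at 358, 359 and 279 CPM against 313, 314 and 282 CPM, a difference of 0.10 (-0.15 to 0.35). Herpud1 was at 80.0, 80.5 and 71.5 CPM against 72.5, 68.5 and 63.5 CPM and was higher in thoracolumbar cord in all 3 mice (0.15, -0.06 to 0.36, adjusted p = 0.646). In mouse 3 the thoracolumbar value was the lower one for Ddit3, Atf4, Atf5, Ppp1r15a, Hspa5 and Xbp1, and in mice 1 and 2 it was the higher one for all 6. Apart from Ppp1r15a, the ratios of these genes ran only from 0.914 to 1.22. Asns, like Herpud1, was higher in all 3 mice, and Chac1 and Trib3 were lower in mouse 1 alone. The share of all genes with the pattern of the 6 was not computed. Trib3, with 14 to 22 reads per library, ranged from 0.590 to 2.02 times the cervical level.

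**Figure D4:**
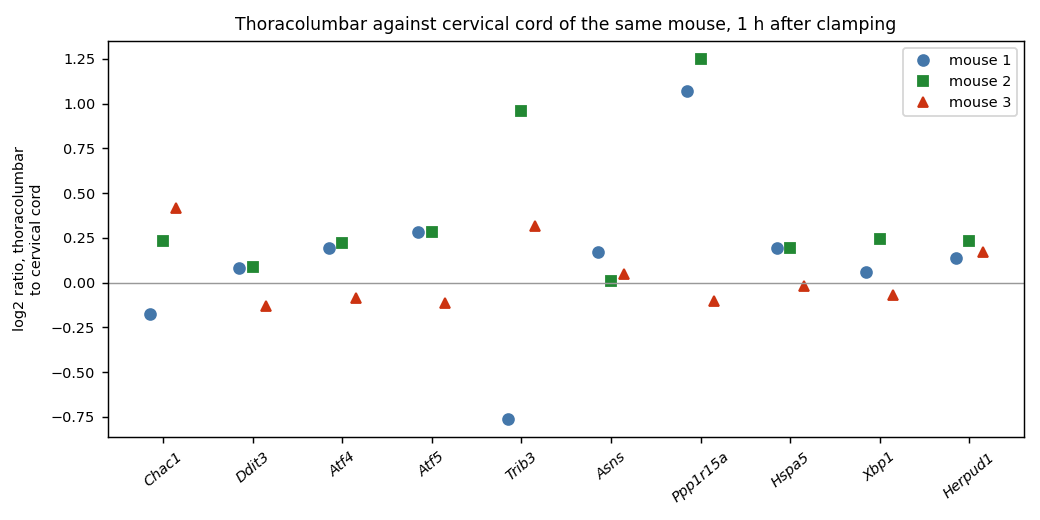
Log2 ratio of thoracolumbar to cervical level for each gene (vertical axis, prior count of 2) in each of the 3 mice 1 h after clamping. Ppp1r15a stands at 1.07 and 1.25 in mice 1 and 2 and at -0.105 in mouse 3, and apart from Ppp1r15a and Trib3 all points lie between -0.177 and 0.418.

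Set side by side without a test, since the 1 h and 4 h counts come from separate tables and differ in time and operation, the 8 groups had different orders for different genes. For Chac1, Ddit3, Atf4, Hspa5, Xbp1, Trib3 and Herpud1 the 3 ACC groups at 4 h had the 3 highest means. Chac1 in both 1 h groups, at 9.71 ± 1.83 and 8.58 ± 0.120 CPM (SD, n = 3), overlapped with Sham, and the step up to WT ACC at 22.9 ± 8.12 CPM had no overlap. Xbp1 lay higher in cervical cord at 1 h (61.2 ± 5.84 CPM) than in WT Sham at 4 h (50.4 ± 1.84 CPM), with no overlap, and Ddit3 in cervical cord (23.9 ± 1.76 CPM) likewise lay above the next group, miR128KO Sham (18.7 ± 1.49 CPM). Ppp1r15a had its highest mean in thoracolumbar cord at 1 h, at 30.8 ± 15.8 CPM, which overlapped with WT ACC at 25.7 ± 5.75 CPM. Asns had its highest means in the 1 h groups (93.2 ± 5.23 and 88.3 ± 1.52 CPM), and Herpud1 its lowest (77.4 ± 5.04 and 68.2 ± 4.51 CPM). Neighbouring groups not named here overlapped, apart from the steps between WT ACC and thoracolumbar cord for Ddit3, between miR128KO ACC and cervical cord for Ppp1r15a, and between miR155KI Sham and thoracolumbar cord for Herpud1.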

How the data were processed

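Gene counts are whole numbers per gene and library as deposited by the authors, in one table for 4 h and one for 1 h. Per the submitters' processing notes, reads were processed with fastp, HISAT2 2.0.5 and featureCounts 1.5.0-p3, with GRCm38 (mm10) as the build, and the authors used DESeq2. Per the labels' protocols, libraries were poly-A selected and directional. The strand setting of the counting is not given in the sources used here. Gene length and position are the deposited annotation.

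Levels (CPM) are counts divided by the column total and rescaled. Tests used edgeR 4.0.16 in R 4.3.3 (TMM, filterByExpr with a minimum count of 10, robust quasi-likelihood F tests). Values of p were adjusted by Benjamini and Hochberg over all genes of a fit. A run on simulated counts recovered 94 to 100 of 100 genes changed by 1 log2 unit, depending on the fit. It gave every gene of a fit the same spread and held no smaller change, so recovery of smaller changes was not checked. The changed genes were drawn from those with a mean above 1 CPM. Recovery of genes at lower levels, or with a wider spread than the common one, was not checked either. Fits had 20 (4 h, ACC against Sham), 16 (6 groups) and 4 (1 h) residual degrees of freedom. Intervals are 95% from the SE, which is the log2 fold change divided by the square root of F. They use t quantiles at the residual degrees of freedom alone (2.086, 2.12 and 2.776 in that order of fits). The tests also draw on the spread of other genes, so intervals, mainly at 1 h, can be wider than the p beside them implies. Libraries at 4 h are separate mice. Over 40 pairs of libraries within groups, the lowest chi-square per gene was 6.50 (1 is sampling noise), so no pair within a group was a repeat; pairs across groups were not compared.

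Libraries with the same number at 1 h are pairs from 1 mouse, as the labels state. Across 17810 genes, the paired deviations correlated at 0.00838, 0.00664 and 0.0276. The fit without the mouse as a block is the one reported.

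The 10 genes, the pathway and marker lists and the rules were chosen with earlier results of these data known. The text names the 10 genes, up to 4 genes per pathway list with the smallest adjusted p at 4 h, and the 5 most correlated genes. Dnajc10, Foxj1, Ccdc153, Hspa1b, Fos and overlapping genes were named after their values were seen. Alternatives were RLE scaling, no filter, DESeq2 1.42.0, genotype as a covariate, a replicate block, each library left out, mouse 3 left out, and miR128KO ACC library 1 kept. Deposited tables of normalized values and of the authors' own tests were not used here.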

Additional observations from a re-analysis of the deposited data

Results flagged for a closer look

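Of 30 tests for a library far from the rest of its group, over the 10 genes in the groups of 4 or 5 libraries, 2 were positive, and chance alone gives about 1 in 20. Ddit3 in miR128KO Sham library 2 stood at 21.0 CPM, where the nearest of the other 3 Sham libraries of that genotype stood at 18.3 CPM. Hspa5 in miR155KI Sham library 4 stood at 228 CPM, where the nearest of the others stood at 249 CPM. Both values lay below the lowest ACC library of the same genotype.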

How the results depend on the processing

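Over 2418 recomputed values of the 10 genes and of the named pathway genes, 2378 kept their direction and side of the threshold, 15 lost the call, 12 gained it and 13 changed sign, none of which passed under any setting. These were log2 values near 0. Asns in miR128KO was -0.03 with ACC library 1 kept and ran from -0.05 to 0.11 over all 26 alternatives. At 1 h Ddit3 was 0.06 without mouse 3. Over all 11 alternatives at 1 h Ddit3 ran from -0.09 to 0.12, Trib3 from -0.15 to 0.61, Asns from -0.0026 to 0.07 and Xbp1 from -0.01 to 0.18. The 8 calls over the 3 genotypes at 4 h were kept under all 28 alternatives. The replicate numbers at 4 h mark separate mice, with correlations from -0.230 to 0.140 between same-numbered libraries. With the replicate block, over 18 matched libraries, all genes called at 4 h went from 2914 to 1866 and the 10 genes kept 8 calls. At 1 h the replicate block gave 79 genes in place of 78 and 0 of the 10.

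With miR128KO ACC library 1 kept, genes called went from 338 to 173 in WT and from 535 to 151 in miR128KO, and calls among the 10 in miR128KO from 6 to 2; the cause was not tested. DESeq2 called 872 genes in miR128KO, 1 for the difference among genotypes, 85 among Sham groups and 137 at 1 h. Without a filter on low counts, 31 genes were called among Sham groups and 272 at 1 h. Without both libraries of mouse 3, an exclusion made by outcome, 1 of the 10, Ppp1r15a, passed at 1 h.

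Leaving out 1 library at a time gave 8 to 9 calls among the 10 over the 3 genotypes (2576 to 3030 genes), 4 to 7 in WT (170 to 355 genes, lowest without WT ACC library 3 or WT Sham library 1), 6 to 6 in miR128KO (289 to 636) and 6 to 6 in miR155KI (566 to 969). It gave 0 to 0 for the difference among genotypes (0 to 2 genes), 0 to 0 among Sham groups (6 to 20 genes) and 0 to 1 at 1 h (34 to 142 genes). With 3 mice per group at 1 h, 95% intervals of the 10 genes were as wide as -0.50 to 2.21 log2 units. Trib3 was limited by its depth, 14 to 22 reads at 1 h and 6 to 46 reads in the 4 h fit.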
